A study of Mus musculus with 8 samples.

Results

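The cytosolic ribosomal protein genes were followed in the quadriceps (QUAD) muscle of 8 male C57BL/6 J mice, with 1 RNA-seq library per mouse. Members were chosen by symbol: Rpl or Rps followed by a digit, plus Rplp0, Rplp1, Rplp2 and Rpsa, without the Rps6k kinases (9 genes) and without pseudogene symbols containing -ps (4 genes). The rule took 85 of the 12171 genes counted. Of these, 49 encode proteins of the large (60S) subunit and 32 encode proteins of the small (40S) subunit. The other 4 are Rps19bp1, Rpl7l1, Rps23rg1 and Rps27rt, which are binding partners, relatives or retrogene copies rather than established subunits.

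In the D-gal + MSCs group, 4 mice were given D-galactose (D-gal) and injections of mesenchymal stromal cells (MSCs) from human umbilical cord. In the D-gal + PBS group, 4 mice were given D-gal and the same volume of phosphate-buffered saline (PBS). All 8 mice therefore carried the D-gal exposure, a chemical model of ageing rather than natural age. The mice were 6 weeks old on arrival and rested for 1 week before D-gal was given under the skin at 100 mg/kg daily for 12 weeks. The MSC dose was 1000000 cells per mouse into the hind limb muscles, QUAD included, every 7 days for 6 injections. Libraries without D-gal are not analysed here, so the comparison is of MSCs against PBS within D-gal mice. RNA of the injected human cells cannot be told apart from mouse RNA in counts per mouse gene.

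The cytosolic ribosome translates the mRNAs made in the nucleus, and each of its subunits is built from ribosomal RNA and a fixed set of proteins. Many ribosomal protein mRNAs begin with a terminal oligopyrimidine (TOP) tract, a C followed by a run of C and T, through which mTORC1 controls their translation. Skeletal muscle replaces some widely used parts of the translation machinery with muscle forms, Rpl3l in place of Rpl3 being one.

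The depth was 32772221 to 40057968 counts in D-gal + MSCs mice and 34912348 to 39356399 in D-gal + PBS mice. All 85 members passed the filter on low counts, which removed 0 genes. The lowest count of a member was 30, in Rps23rg1, and every other member had at least 176 counts in each library. Genes encoded by mitochondrial DNA held 28.4 ± 5.91% of counts in D-gal + MSCs mice and 16.8 ± 2.00% in D-gal + PBS mice (SD, n = 4 each). Muscle fibre markers were abundant in every library. They summed to 116475 to 151634 CPM in D-gal + MSCs mice and 145477 to 180315 CPM in D-gal + PBS mice. CPM are counts per 1000000 of an effective total, the library total times its trimmed-mean-of-M-values (TMM) factor. The CPM of all genes summed to 990810 to 1316476 in D-gal + MSCs mice and 877193 to 1044134 in D-gal + PBS mice.

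Start-site sequence was read from RefSeq promoter windows on the mouse build GRCm38.p6. Each line gives 15 bases before and 15 bases from the annotated start, 5′ to 3′. Capitals mark a C followed by at least 4 C or T that begins from 5 bases before to 5 bases after the start. Rps6, Rplp2, Rpl38 and Rpl22l1 are shown because they hold such a run, Rpl3l because it is the muscle form and holds none, and Rps19bp1 because its level separated the groups. They lie at chr4:86857353-86857382 (minus strand), chr7:141447636-141447665 (plus), chr11:114668565-114668594 (plus), chr3:28805493-28805522 (plus), chr17:24727811-24727840 (plus) and chr15:80264292-80264321 (minus), in the order printed.
Rps6: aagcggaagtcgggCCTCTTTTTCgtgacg
Rplp2: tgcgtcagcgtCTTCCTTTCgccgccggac
Rpl38: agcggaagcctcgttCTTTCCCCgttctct
Rpl22l1: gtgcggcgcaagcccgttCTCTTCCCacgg
Rpl3l: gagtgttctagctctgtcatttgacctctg
Rps19bp1: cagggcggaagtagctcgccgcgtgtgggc

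Of the 85 members, 65 had a RefSeq entry. The run was found in 33 of their 77 start windows (42.9%), against 18.3% of all 32851 windows on the strand of transcription. By gene, 31 of 65 members held it (47.7%), against 21.2% of all genes with an entry. A match describes the letters only, and an annotated start can lie some bases away from the start used in muscle. The 31 members with a match had a median log2 fold change of -0.16 between the groups, and the 34 without one had -0.13.

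No member passed the test between D-gal + MSCs and D-gal + PBS mice. At an adjusted p under 0.05, edgeR's quasi-likelihood test called 0 of 85 members, where 0% of the 12171 genes were called. DESeq2 also called 0 members, where it called 2.52% of the genes with a value. The lowest adjusted p of a member was 0.287 with edgeR and 0.145 with DESeq2. At an unadjusted p under 0.05, edgeR had 4 members lower in D-gal + MSCs mice, Rps19bp1, Rpl10 and Rpl17 among them, beside 5.11% of all genes, and 0 members higher, beside 5.64% of all genes. With a log2 fold change of at most -0.5 as well, 2 members remained, Rpl17 and Rps19bp1, beside 3.06% of all genes, and 0 had at least 0.5, beside 3.76%. DESeq2 also had 4 lower, beside 5.69% of all genes, and 0 higher at an unadjusted p under 0.05. The count of members lower in edgeR was 1 without D-gal + MSCs 1 (beside 4.18% of all genes), without D-gal + MSCs 2 (5.36%), without D-gal + PBS 1 (4.12%) and without D-gal + PBS 4 (5.19%). It was 9 without D-gal + MSCs 4, beside 3.88% of all genes.

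The members leaned to negative values. The log2 fold change (D-gal + MSCs over D-gal + PBS) was negative in 78 of 85 members, beside 50.5% of all genes, and its median was -0.15, beside -0.00 over all genes. The values ran from -0.65 for Rpl17 to 0.33 for Rps27rt, and all but Rpl17 and Rps19bp1 lay at -0.36 or above. In 55 of 85 members the fold change was smaller than its own standard error, which was 0.13 to 0.39 with a median of 0.19. The members vary together from mouse to mouse, so 78 values of one sign are not 78 separate measurements. Leaving out D-gal + MSCs 1 and D-gal + PBS 4, the mice with the lowest and the highest median level, gave 33 negative values and a median of 0.03. That pair was chosen after the values were seen, and by the members' own levels, so that leaving it out had to move the values upwards. Leaving out D-gal + MSCs 4 and D-gal + PBS 2 gave 83 negative values and a median of -0.30. D-gal + MSCs 4 had the highest median level of its group, at 0.22. D-gal + PBS 2, at -0.10, lay below its group mean of 0.08. Leaving out these mice therefore had to move the values downwards. In bulk muscle, fewer cells of a type and less RNA per cell cannot be told apart.

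**Figure D1:**
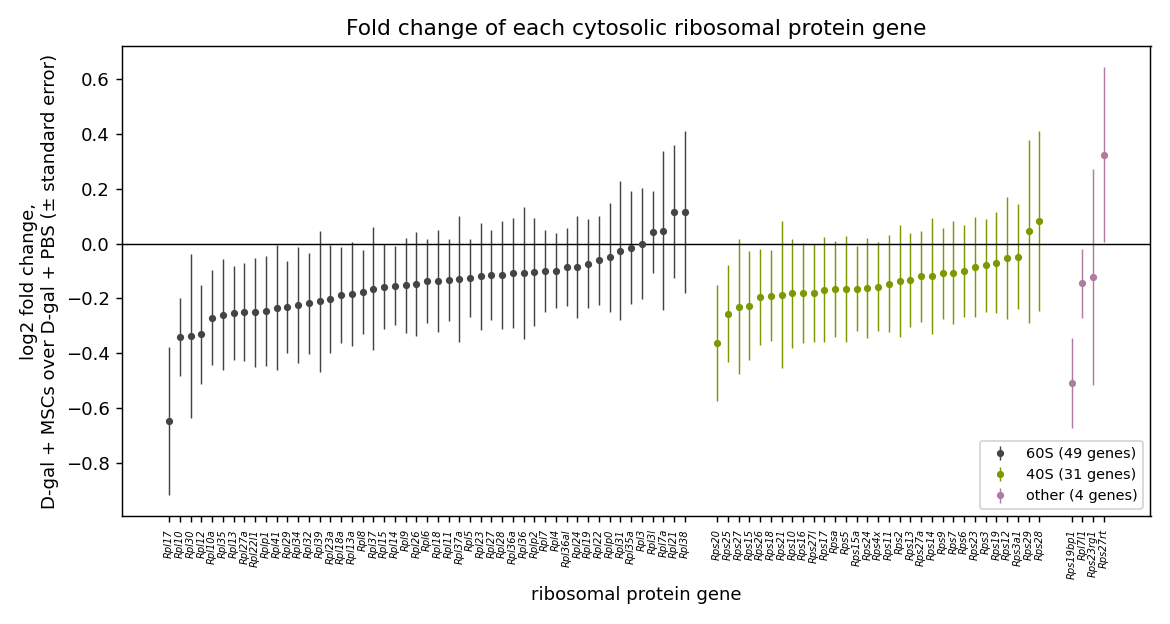
Points are the log2 fold change of each ribosomal protein gene, D-gal + MSCs over D-gal + PBS (n = 4 mice each). Error bars are standard errors derived from the edgeR F statistic. Genes of the 60S subunit, genes of the 40S subunit (1 is not drawn) and 4 others are shown. Most points sit just below 0 with error bars that reach or cross it, and Rpl17 and Rps19bp1 are the lowest.

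Both subunits were represented among the negative values. The 60S genes had a median log2 fold change of -0.14, with 45 of 49 negative, and the 40S genes had -0.16, with 30 of 32 negative. The difference between the median relative levels of 60S and 40S genes lay between -0.04 and 0.02 on the log2 scale in each of the 8 mice. Of 3 genes of the ribosome outside the symbol rule, 2 were negative and 1 was positive. Fau, which encodes a precursor of the 40S protein eS30, had a log2 fold change of -0.11 ± 0.23 (SE). Rack1, a scaffold protein of the 40S subunit, had -0.20 ± 0.16 (SE).

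The spread between mice of one group was larger than the difference between the groups. The median log2 level of the members, relative to the mean of the 8 mice, was -0.40, -0.28, 0.14 and 0.22 in D-gal + MSCs mice 1 to 4, against 0.26, -0.10, -0.16 and 0.33 in D-gal + PBS mice 1 to 4. The groups overlapped, with 2 low and 2 high mice in each. The pooled SD within groups was 0.28. The lowest level was in D-gal + MSCs 1 for 71 of 85 members, as for 12.5% of all genes. The highest was in D-gal + PBS 4 for 49 members, as for 17.0% of all genes, and in D-gal + PBS 1 for 22. In every mouse, 69 members lay within 0.3 of the member median.

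**Figure D2:**
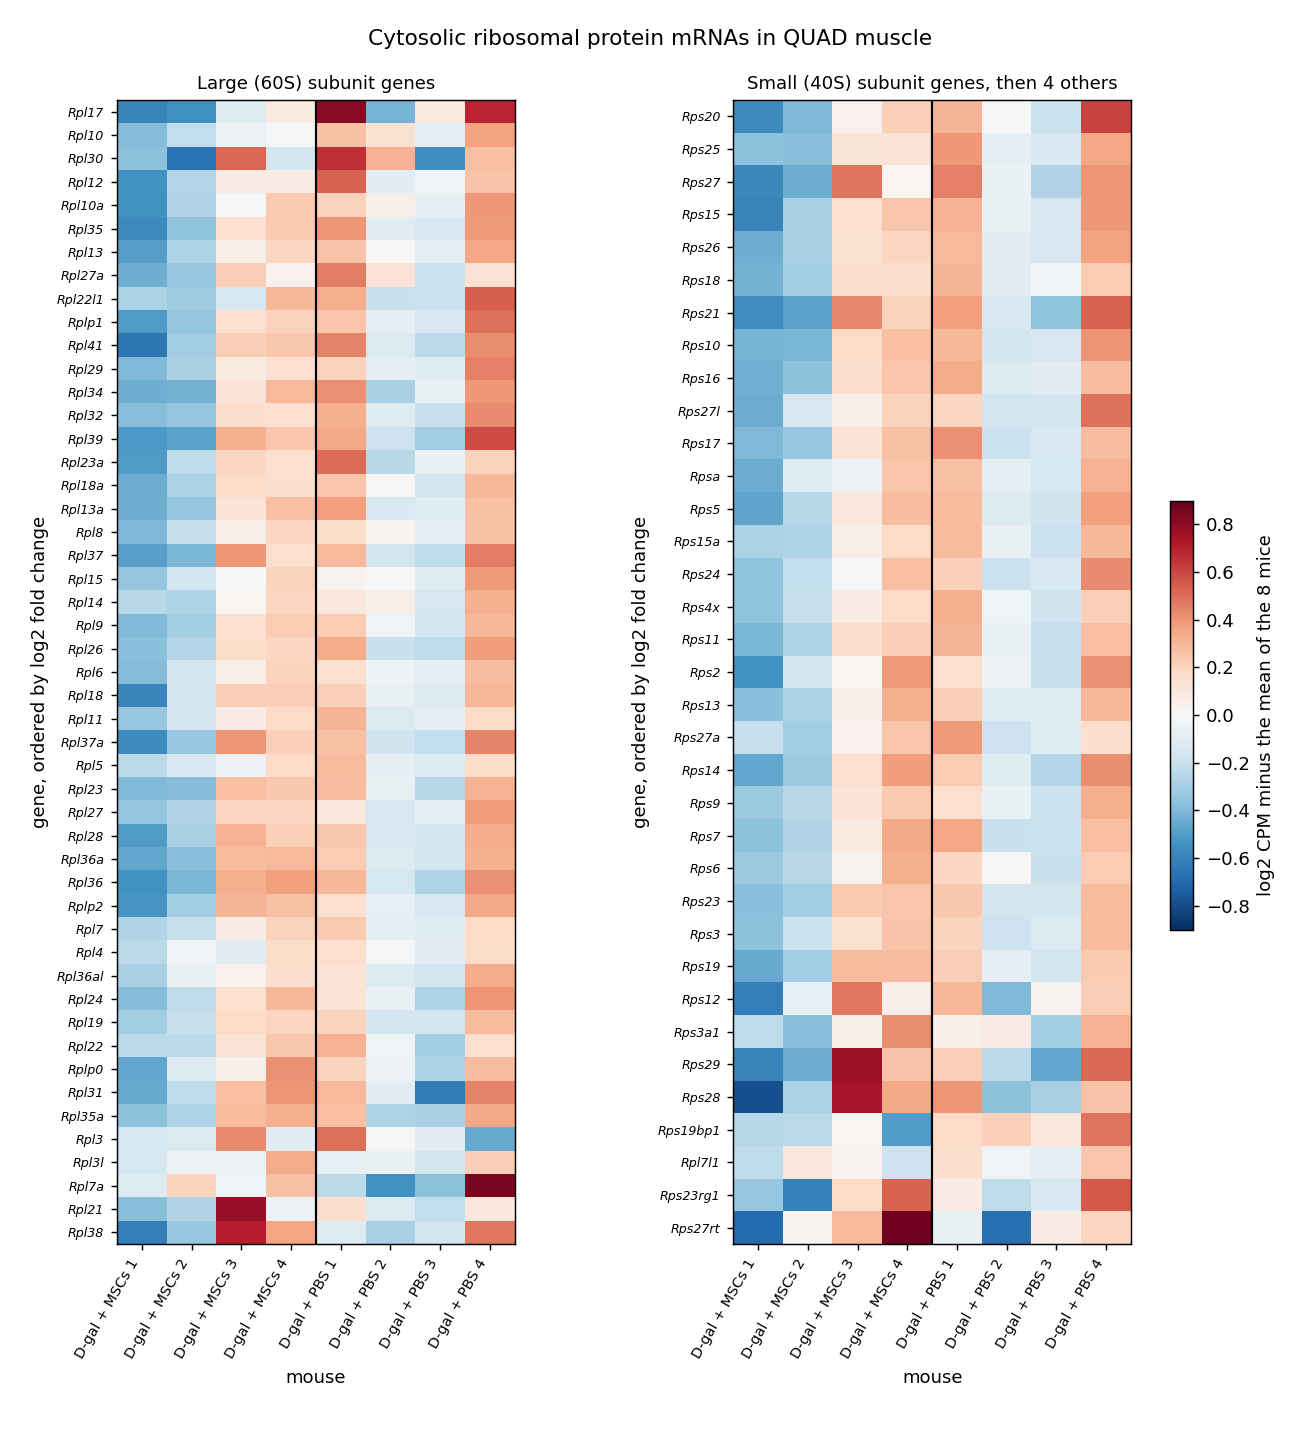
Each cell is the log2 CPM of 1 gene in 1 mouse minus the mean of the 8 mice, with the 4 D-gal + MSCs mice left of the black line and the 4 D-gal + PBS mice right of it, and 1 gene of the 40S subunit is not drawn. Columns look alike from gene to gene: D-gal + MSCs 1 and 2 are blue and D-gal + PBS 1 and 4 are red for most members, while Rpl3, Rpl7a, Rps19bp1 and Rps27rt depart from the rest.

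The share of each library's counts that fell on the members was 1.23 ± 0.190% in D-gal + MSCs mice and 1.56 ± 0.169% in D-gal + PBS mice (SD, n = 4 each). That is a difference of -0.33 percentage points. The ranges were 1.04 to 1.49% and overlapped with 1.36 to 1.75% in D-gal + PBS mice. With mitochondrially encoded genes left out of the total, the shares were 1.73 ± 0.301% in D-gal + MSCs mice and 1.88 ± 0.230% in D-gal + PBS mice, a difference of -0.15 points. Scaling by library totals alone, without TMM, moved the median of all genes to -0.19. On that scale the members' median was -0.34, and 47 members were lower at an unadjusted p under 0.05, beside 12.9% of all genes.

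Levels in each mouse differed by transcript length, among the members and among other genes. The members' median transcript was 803.5 nt, beside 2970 nt over all genes, and 74 of the 84 with a length were at most 1500 nt. Other genes of at most 500 nt (41 genes) had median relative log2 levels of -0.32, -0.25, 0.30 and 0.29 in D-gal + MSCs mice 1 to 4, and 0.16, -0.25, -0.27 and 0.37 in D-gal + PBS mice 1 to 4. These short genes were low and high in the same mice as the members. Their median log2 fold change was 0.03, with 46.3% negative, against -0.11 for the 13 members of that length. From 500 to 700 nt, 154 other genes had -0.01, with 50.6% negative, against -0.15 for 18 members. From 700 to 1000 nt, 424 other genes had -0.07, with 64.4% negative, against -0.16 for 28 members. From 1000 to 1500 nt, 1099 other genes had -0.05, with 58.1% negative, against -0.14 for 15 members. Among genes over 4000 nt the order was turned, with 0.13 in D-gal + MSCs 1 and -0.11 in D-gal + PBS 4.

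With each library's length trend removed, a correction chosen after the values were seen, the range of the members' median over the 8 mice was 0.37, where it had been 0.73. The corrected median was -0.19, -0.11, -0.02 and 0.07 in D-gal + MSCs mice 1 to 4, and 0.18, 0.02, -0.06 and 0.12 in D-gal + PBS mice 1 to 4. The groups still overlapped. The median log2 fold change was then -0.12, with 74 of 84 negative, and 6 members were lower at an unadjusted p under 0.05, beside 5.69% of all genes. The number of members with an adjusted p under 0.05 in edgeR was again 0. The part of length in the result was not tested.

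**Figure D3:**
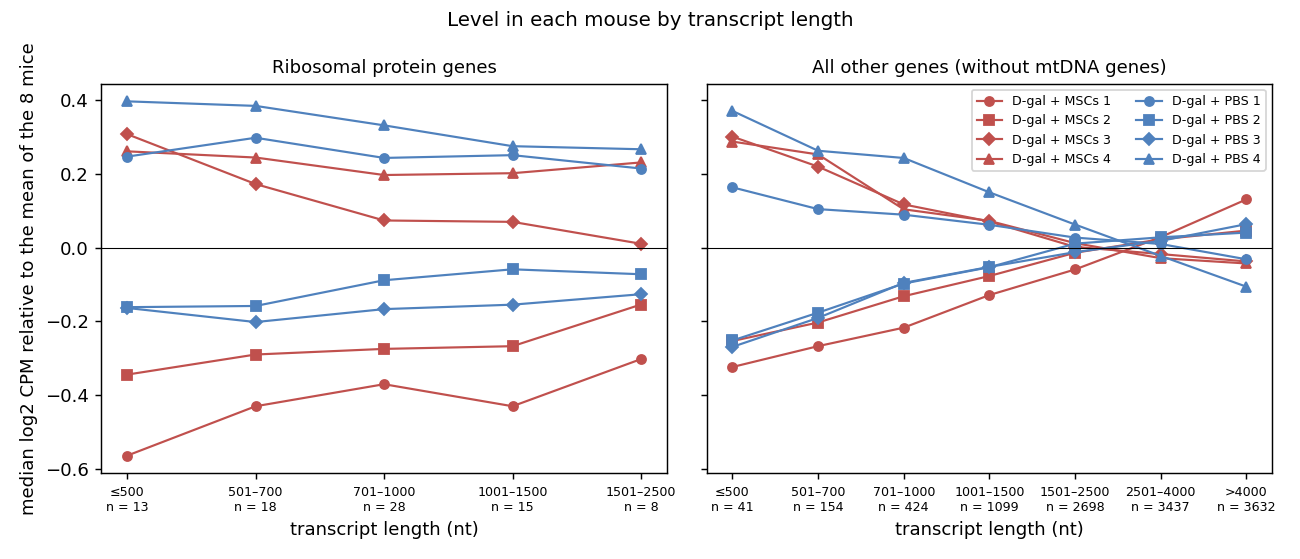
Median log2 CPM relative to the mean of the 8 mice (vertical axis) by transcript length in nt (horizontal axis), for ribosomal protein genes on the left and all other genes on the right, with 1 line per mouse. At the short end the mice spread by 0.96 among ribosomal protein genes and by 0.69 among other genes, and the other genes draw together towards 4000 nt.

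Rps19bp1 was the only member whose groups did not overlap, beside 3.19% of all genes with every D-gal + MSCs mouse below every D-gal + PBS mouse. In the other direction there were 0 members, beside 3.09% of all genes. Rps19bp1 encodes AROS, a binding partner of Rps19 and a known regulator of SIRT1. It was at 8.08, 8.16, 9.87 and 6.73 CPM in D-gal + MSCs mice 1 to 4, against 11.1, 11.4, 10.5 and 13.8 CPM in D-gal + PBS mice 1 to 4. The fitted log2 fold change was -0.51 ± 0.17 (SE), and its edgeR adjusted p was 0.287. It was among the 3 members with the lowest level per coding length. Rps19 itself, a 40S protein mutated in Diamond-Blackfan anaemia, had a log2 fold change of -0.07 ± 0.19 (SE).

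Rpl17, a 60S protein near the exit of the peptide tunnel, had the largest fold change of a subunit gene. It was at 31.1, 32.3, 43.9 and 50.3 CPM in D-gal + MSCs mice 1 to 4, against 84.1, 35.5, 50.5 and 76.6 CPM in D-gal + PBS mice 1 to 4. The groups overlapped, and D-gal + PBS 1 and 4 stood above the other 6 mice. The log2 fold change was -0.65 ± 0.27 (SE), with an edgeR adjusted p of 0.428. The mouse annotation holds 11 Rpl17 symbols of the -ps kind, so reads may be shared with copies. Such symbols exist for 60 of the 85 members.

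Rpl10, a 60S protein needed for joining of the subunits, was at 215, 241, 271 and 278 CPM in D-gal + MSCs mice 1 to 4, against 338, 310, 264 and 361 CPM in D-gal + PBS mice 1 to 4. D-gal + PBS 1 and 4 were high and D-gal + MSCs 1 and 2 were low, and the groups overlapped through D-gal + PBS 3. The log2 fold change was -0.34 ± 0.14 (SE), with an edgeR adjusted p of 0.420.

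The 3 most positive members were weakly expressed and had wide errors. Rps27rt, a retrogene copy of Rps27, was at 6.38, 10.9, 13.2 and 20.1 CPM in D-gal + MSCs mice 1 to 4, against 10.2, 6.51, 11.2 and 12.3 CPM in D-gal + PBS mice 1 to 4. Its log2 fold change was 0.33 ± 0.32 (SE), and the groups overlapped over most of their range. Rpl21 had 0.12 ± 0.24 and Rpl38, known for selective translation of Hox mRNAs in mouse embryos, had 0.12 ± 0.30 (SE). Without D-gal + MSCs 3 they turned to -0.22 and -0.15.

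Rpl3l was the main Rpl3-type mRNA of this muscle. Per kilobase of coding sequence it averaged 343 CPM in D-gal + MSCs mice and 333 CPM in D-gal + PBS mice, where Rpl3 averaged 49.6 CPM in each group. Rpl3l was at 368, 396, 396 and 517 CPM in D-gal + MSCs mice 1 to 4, against 390, 394, 365 and 478 CPM in D-gal + PBS mice 1 to 4. Replicate 4 was the highest in each group, and the groups overlapped. Rpl3 was at 52.4, 53.6, 79.0 and 54.8 CPM in D-gal + MSCs mice 1 to 4, against 82.8, 59.2, 55.0 and 42.8 CPM in D-gal + PBS mice 1 to 4. The Rpl3 level was high in D-gal + MSCs 3 and D-gal + PBS 1 and lowest in D-gal + PBS 4, where most members were highest. The log2 ratio of Rpl3l to Rpl3 differed by 0.02 ± 0.32 (SE) between the groups (two-sided exact permutation test, p = 0.971, n = 4 each), where 0.0286 is the smallest p this design allows.

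**Figure D4:**
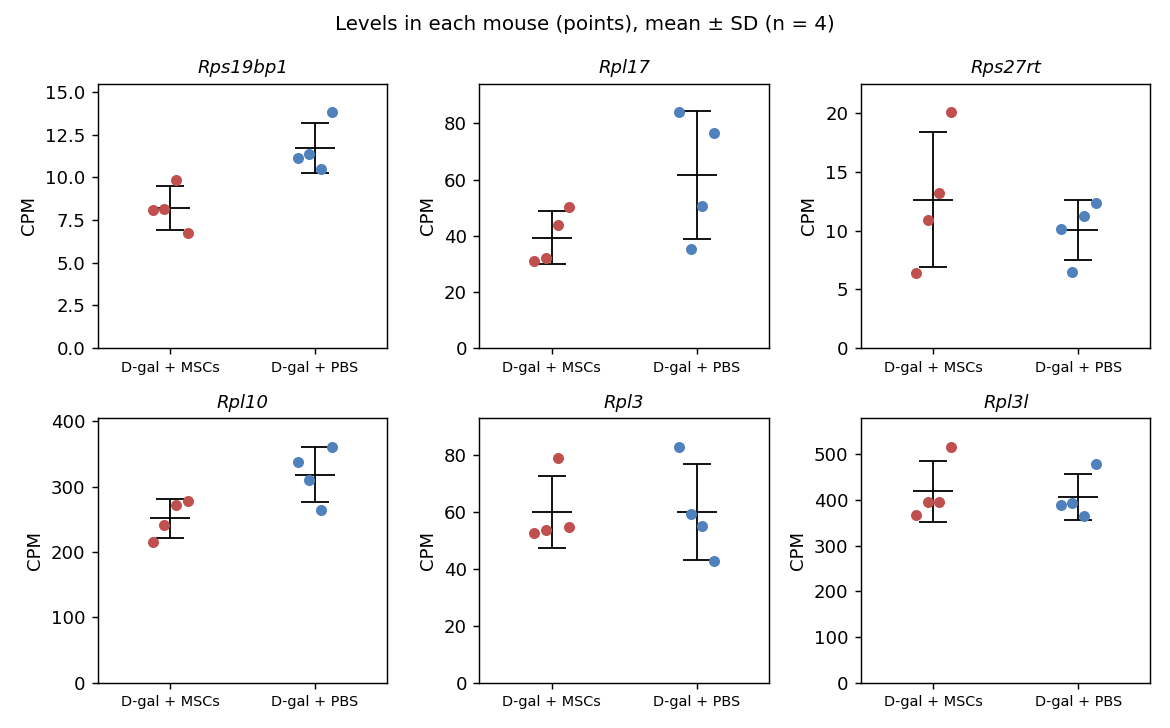
CPM in each mouse (points) with the mean and SD (n = 4), D-gal + MSCs left of D-gal + PBS in every panel, for Rps19bp1, Rpl17, Rps27rt, Rpl10, Rpl3 and Rpl3l. The groups separate for Rps19bp1 alone, with 6.73 to 9.87 CPM in D-gal + MSCs mice and 10.5 to 13.8 CPM in D-gal + PBS mice.

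Per coding kilobase, the other paralogue pairs kept their order in both groups. That scale leaves out untranslated sequence, on which counts can fall. Transcripts were 2048 nt for Rpl22 and 552 nt for Rpl22l1, and 757 nt for Rpl36al and 483 nt for Rpl36a. The order of these pairs therefore depends on the length used. Per coding kilobase, Rpl22l1 was at 105 CPM and Rpl22 at 237 CPM in D-gal + MSCs mice, against 125 and 247 CPM in D-gal + PBS mice. Rps27l was at 215 CPM and Rps27 at 260 CPM in D-gal + MSCs mice, against 243 and 305 CPM in D-gal + PBS mice. Rpl36al, at 169 CPM, exceeded Rpl36a, at 117 CPM, in D-gal + MSCs mice, as it did in D-gal + PBS mice at 179 and 126 CPM. Rpl7l1, a nucleolar relative of Rpl7, was at 50.8 CPM beside 312 CPM for Rpl7 in D-gal + MSCs mice, against 56.2 and 335 CPM in D-gal + PBS mice. For these 8 genes the log2 fold changes lay between -0.25 for Rpl22l1 and -0.06 for Rpl22. Rpl39 had -0.21 and Rps4x had -0.16, while their partners Rpl39l and Rps4l, and Rpl10l, were not among the genes counted.

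Of the stalk proteins, which recruit translation factors to the 60S subunit, Rplp1 and Rplp0 were among the most abundant members. Over the 81 subunit genes the level per coding kilobase ran from 44.0 to 1678 CPM over the 8 mice, with a median of 309 CPM and quartiles of 229 and 375 CPM. Rpl41, which encodes a very short peptide, was the highest on this scale, followed by Rplp1 at 897 CPM and Rplp0 at 776 CPM. Rpl41 has 75 nt of coding sequence in a transcript of 544 nt. Counts can fall on the whole transcript, so the rank of Rpl41 depends on the length used. Rplp2 was at 375 CPM. The log2 fold changes were -0.23 ± 0.23 for Rpl41, -0.25 ± 0.20 for Rplp1, -0.05 ± 0.20 for Rplp0 and -0.10 ± 0.20 for Rplp2 (SE). Without D-gal + MSCs 1 the values of Rplp0 and Rplp2 turned to 0.078 and 0.034.

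Rpl5 and Rpl11, which bind Mdm2 when ribosome assembly is disturbed, had log2 fold changes of -0.13 ± 0.14 and -0.13 ± 0.15 (SE). Rps6, the substrate of the S6 kinases, had -0.10 ± 0.17. Rpsa, also known as the laminin receptor precursor, had -0.17 ± 0.18. The counts say nothing of Rps6 phosphorylation.

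Genes that make, translate with or regulate ribosomes were read from lists chosen with earlier results known. None of their genes passed edgeR at an adjusted p under 0.05. Of 22 translation factors with TOP mRNAs, 0 were past an unadjusted p under 0.05 in either direction, and the median log2 fold change was -0.06. The 2 with the smallest p were Hnrnpa1 at 0.16 and Btf3 at -0.17. Eef1a1 had -0.06 and its muscle form Eef1a2 had -0.02. Of 14 genes of RNA polymerase I, which transcribes ribosomal RNA, 0 were past that p, with Ubtf at -0.25 and Polr1h at -0.26.

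Of 87 ribosome biogenesis factors, 1 was higher at an unadjusted p under 0.05, beside 5.64% of all genes, and 3 were lower, beside 5.11%. The median log2 fold change was -0.05. Ddx56, a nucleolar helicase of 60S assembly, was at 19.1, 15.1, 24.3 and 25.6 CPM in D-gal + MSCs mice 1 to 4, against 12.4, 13.6, 10.9 and 13.6 CPM in D-gal + PBS mice 1 to 4. Every D-gal + MSCs mouse was above every D-gal + PBS mouse, as for 2 of the 87 factors and 3.09% of all genes. In the other direction there were 4 factors, beside 3.19% of all genes. The log2 fold change of Ddx56 was 0.73 ± 0.18 (SE), with an adjusted p of 0.151 with edgeR and 0.0139 with DESeq2. Mrto4, a factor for assembly of the stalk, had -0.28. Of 33 genes of the mTORC1 pathway, 1 was higher and 2 were lower at that unadjusted p, beside the same shares of all genes. Mtor was higher, at 0.36. Ddit4l at -0.55 and Ddit4 at -0.70, both inhibitors of mTORC1, were lower, and Ddit4 was named after its values were seen. Over the 33 genes the median log2 fold change was -0.03, with 15 positive and 18 negative.

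Of 10 p53 and nucleolar stress genes and of 13 genes of ribosome-associated quality control, 0 were past an unadjusted p under 0.05. The 2 with the smallest p were Phlda3 at 0.35 and Trp53 at -0.17 in the first list, and Nemf at 0.19 and Tcf25 at -0.14 in the second. None of 15 snoRNA host genes was among the genes counted. Mitochondrial ribosomal proteins, which serve the separate ribosome of mitochondria, had a median of 0.10 over 78 genes, with 55 positive, Mrps9 at 0.60 and Mrps35 at 0.38. Nuclear complex I genes had 0.23 over 38 genes, with Ndufv1 at 0.44 and Ndufs1 at 0.40. Proteasome genes had -0.06 over 34 genes, with Psmd6 and Psmd5 at -0.18 each. At an unadjusted p under 0.05, 3 mitochondrial ribosomal protein genes and 1 complex I gene were higher, beside 5.64% of all genes. In these lists 0 genes were lower, beside 5.11%. In D-gal + MSCs mice 1 to 4, the median relative log2 level of complex I genes was -0.28, -0.16, 0.28 and 0.60. It was -0.02, -0.41, -0.28 and 0.27 in D-gal + PBS mice 1 to 4. The difference between these lists and the cytosolic ribosomal proteins was not tested.

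**Figure D5:**
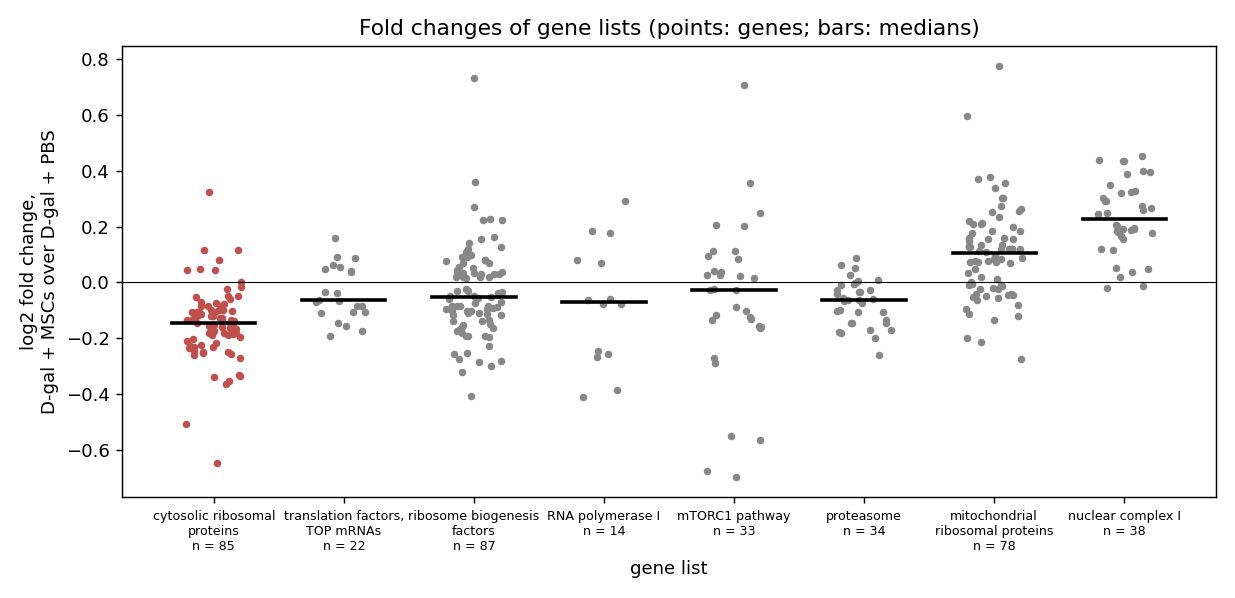
The log2 fold change, D-gal + MSCs over D-gal + PBS, of each gene (points) in 8 gene lists, with the median as a bar. Cytosolic ribosomal proteins (red) have a median of -0.15, mitochondrial ribosomal proteins 0.10 and nuclear complex I genes 0.23.

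Markers of other cell types also differed between the mice. Fibro-adipogenic progenitor markers summed to 973 to 2157 CPM in D-gal + MSCs mice and 1711 to 2967 CPM in D-gal + PBS mice, with 10 of 10 negative log2 fold changes and 5 genes lower at an unadjusted p under 0.05. Erythroid markers (6 of 7 measured) summed to 39.8 to 224 CPM in D-gal + MSCs mice and 180 to 577 CPM in D-gal + PBS mice. Leukocyte markers (10 of 18 measured) summed to 81.02 to 224 CPM in D-gal + MSCs mice and 129 to 215 CPM in D-gal + PBS mice. Endothelial markers (10 of 10) summed to 586 to 1057 CPM in D-gal + MSCs mice and 405 to 792 CPM in D-gal + PBS mice, with 9 of 10 positive and 3 higher at that p. Adipocyte markers (6 of 7) summed to 266 to 480 CPM in D-gal + MSCs mice and 270 to 638 CPM in D-gal + PBS mice, satellite cell markers to 47.8 to 84.6 CPM in D-gal + MSCs mice and 64.5 to 102 CPM in D-gal + PBS mice, and Schwann cell markers to 205 to 289 CPM in D-gal + MSCs mice and 101.2 to 253.9 CPM in D-gal + PBS mice. Schwann cell markers had 7 of 7 positive and 1 higher at that p, and satellite cell markers had 6 of 7 negative and 2 lower. Leukocyte markers had 8 of 10 negative and 1 lower, erythroid markers 5 of 6 negative and 1 lower, and adipocyte markers 5 of 6 negative with 0 past that p. The sums of all 7 of these lists overlapped between the groups. By the median relative log2 level of the list, satellite cell markers did not overlap, at -0.41 to -0.20 in D-gal + MSCs mice and -0.05 to 0.32 in D-gal + PBS mice. Of the 14 muscle fibre markers, 11 had negative log2 fold changes, with a median of -0.21. At an unadjusted p under 0.05, 2 of them were higher, beside 5.64% of all genes, and 2 were lower, beside 5.11%. The part of these marker lists in the members' values was not tested.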

How the data were processed

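The authors deposited raw counts per gene for 8 QUAD libraries (VAHTS Universal V6 kit, TRIzol RNA, 1 library per mouse). The submitters' processing notes name HISAT2 and GRCm39. Which tool and annotation were used for counting, and whether strand was used, is not given in the sources used here. The members and gene lists were chosen with earlier results of these data known. Counts were tested over all 12171 genes with edgeR 4.0.16 (quasi-likelihood test, robust, TMM factors, filterByExpr) in R 4.3.3, with Benjamini-Hochberg adjustment. DESeq2 1.42.0 and limma 3.58.1 (voom) were alternatives, beside other scalings, a minimum of 10 counts, a replicate block and left-out mice. The scripts were tested on simulated data. Standard errors of edgeR fold changes were derived as the absolute log2 fold change over the square root of the test's F statistic. Relative levels used log2(CPM + 0.5). Transcript and coding lengths came from GENCODE vM21 (GRCm38), for 84 members. Named members were the paralogue pairs, stalk proteins, Rpsa, Rps6, Rpl5, Rpl11, Rps19, Rps19bp1, the 4 smallest p in each direction and the 3 highest and lowest per coding length. A member that this rule names and a gene of another list are not reported here. From each other list the 2 smallest p were named. Ddit4, Rpl7a and Rps23rg1 were named after their values were seen.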

Additional observations from a re-analysis of the deposited data

Results flagged for a closer look

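In a screen of 106 groups of 4 mice, 8 had 1 mouse far from the other 3, and chance gives about 1 in 20. Among the members, Rpl3 was at 79.0 CPM in D-gal + MSCs 3, where the other D-gal + MSCs mice had 52.4 to 54.8 CPM. Eef1a1 was at 662 CPM in the same mouse, where the others had 459 to 482 CPM. Mtor was at 18.1 CPM in D-gal + PBS 1, against 23.64 to 23.96 CPM in the other D-gal + PBS mice. Phlda3 was at 230 CPM in D-gal + MSCs 1, against 307 to 314 CPM in the other D-gal + MSCs mice. Nemf was at 80.003 CPM in D-gal + MSCs 4, against 60.03 to 60.60 CPM in the others of that group, and at 49.5 CPM in D-gal + PBS 2, against 59.5 to 59.9 CPM in the others of its group. Psmd5 was at 23.3 CPM in D-gal + MSCs 1, against 26.3 to 26.9 CPM, and Ndufs1 was at 561 CPM in D-gal + MSCs 4, against 330 to 369 CPM, in the other D-gal + MSCs mice.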

How the results depend on the processing

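No member reached an adjusted p under 0.05 in edgeR under any alternative run, in DESeq2 or in limma-voom. The median log2 fold change of the members lay between -0.25 and -0.05 when each mouse was left out in turn, with 58 to 82 negative values. Members lower at an unadjusted p under 0.05 then numbered 1 to 9, and members higher 0 to 1. With library totals alone 47 members were lower. With D-gal + MSCs 4 and D-gal + PBS 2 both left out, 10 were lower, beside 2.83% of all genes, and 83 had negative values, with a median of -0.30. By the members' levels in those mice, leaving them out had to move the values downwards. With D-gal + MSCs 1 and D-gal + PBS 4 both left out, chosen after the values were seen, 0 were lower, beside 4.67% of all genes, 2 were higher, and 33 had negative values. The share of all genes higher is not given for that run or for the runs with 1 mouse left out. The counts of members higher in these runs therefore cannot be judged. The share of counts differed by -0.15 percentage points with mitochondrially encoded genes out of the total. The cause of these changes was not tested.

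Without D-gal + MSCs 1 and D-gal + PBS 4, many named genes turned positive: Rpl22 0.046, Rpl7 0.0091, Rpl36a 0.11, Rpl36al 0.10, Rpl39 0.099, Rps27l 0.079, Rplp0 0.16, Rplp1 0.0055, Rplp2 0.13, Rpsa 0.020, Rps6 0.045, Rps19 0.12, Rpl41 0.014, Fau 0.13 and Eef1a2 0.11. Rpl3, at -0.00, was 0.0064 with DESeq2 and with median-of-ratios factors, 0.019 with limma-voom, 0.020 with the replicate block, 0.00030 with at least 10 counts in every sample, 0.0011 with factors set without mitochondrially encoded genes, 0.035 without D-gal + MSCs 4 and D-gal + PBS 2 and 0.028 without the length trend. Without D-gal + MSCs 4 and D-gal + PBS 2, Rpl3l was -0.089, Rps27rt -0.15 and Rpl38 -0.063. With library totals alone, Rpl3l was -0.15, Rpl21 -0.048, Rpl38 -0.060, Hnrnpa1 -0.016 and Nemf -0.0063. Eef1a2 was 0.012 without the length trend. Of 50 named genes, 27 kept their sign in every alternative run.

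Leaving out each mouse in turn gave -0.17 to 0.25 for the log2 ratio of Rpl3l to Rpl3, -0.16 to 0.20 for Rpl3, -0.073 to 0.13 for Rpl3l, -0.16 to 0.046 for Rpl22, -0.23 to 0.018 for Rpl36a, -0.15 to 0.022 for Rpl36al, -0.22 to 0.078 for Rplp0, -0.23 to 0.034 for Rplp2, -0.18 to 0.054 for Rps19, -0.22 to 0.25 for Rpl21, -0.15 to 0.32 for Rpl38, -0.27 to 0.026 for Fau, -0.20 to 0.11 for Eef1a1 and -0.078 to 0.069 for Eef1a2.

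Mice of the 2 groups share numbers 1 to 4. Deviations of same-numbered mice correlated at -0.0027, 0.16, 0.10 and 0.22, where mice of unlike number ran from -0.24 to 0.20. Only D-gal + MSCs 2 and 4 and D-gal + PBS 4 correlated best with their own number. So few correlations cannot settle whether the numbers pair the mice. With the number as a replicate block, the members' median was -0.16, 4 were lower at an unadjusted p under 0.05, beside 6.58% of all genes, and 0 were called, where edgeR called 78 of all genes. With 4 mice a group, a member's standard error of 0.13 to 0.39 sets the size of difference that could be seen.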
